A study of Homo sapiens with 12 samples.

Results

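The transcripts of the integrin and laminin chains were examined in U251 cells, an established human glioblastoma line. The chains were taken by gene symbol, and this choice was made with earlier results of these data known. The table held 38 of them among its 45416 genes: 18 integrin alpha chains (*ITGA*), 8 integrin beta chains (*ITGB*), and 12 laminin chains (5 *LAMA*, 4 *LAMB* and 3 *LAMC*). U251 cells were transfected with a control siRNA (siNC) or with 1 of 2 siRNAs against *PD-L1* (siPDL1-1 and siPDL1-2), and after 48 h were left unstimulated or were given interferon-gamma (IFNγ) at 100 U/ml for 24 h. The 6 groups were therefore unstimulated siNC, IFNγ-treated siNC, unstimulated siPDL1-1, IFNγ-treated siPDL1-1, unstimulated siPDL1-2 and IFNγ-treated siPDL1-2, each with 2 libraries. All 12 libraries came from 1 wild-type cell line that had received an siRNA, and no untransfected cells were among them. The study's methods give the libraries as coming from 2 independent experiments, but the labels did not say which library belonged to which. The p-values therefore measure the spread between libraries of the same group, pooled over the 6 groups and moderated across genes.

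Integrins are cell surface receptors made of 1 alpha and 1 beta chain. The pair sets the ligand: alpha chains such as *ITGA3*, *ITGA6* and *ITGA7* bind laminins, *ITGA1*, *ITGA2*, *ITGA10* and *ITGA11* bind collagens, and *ITGA5*, *ITGAV* and *ITGA8* bind fibronectin, vitronectin and other proteins with an Arg-Gly-Asp motif, while *ITGAL*, *ITGAM*, *ITGAX* and *ITGAD* are leukocyte chains. Laminins are trimers of an alpha, a beta and a gamma chain that polymerize into the basement membrane, the sheet of matrix that in brain surrounds blood vessels and along which glioma cells are known to migrate. In bulk RNA, fewer cells making a transcript and less of it per cell cannot be told apart.

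*ITGA6* was the chain that IFNγ raised most, and the 250 bases before its start are shown as an example of the promoters that were searched. RefSeq promoter windows (build GRCh38.p14), each from 250 bases before to 50 bases after a start, were found for 26 of the 38 chains, 33 windows in all. The sequence before the first of the 2 *ITGA6* starts is on the plus strand of chromosome 2, at chr2:172427086-172427336, is printed in lower case, and ends with the first transcribed base in capitals.

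ITGA6 (first start, 250 bases before it): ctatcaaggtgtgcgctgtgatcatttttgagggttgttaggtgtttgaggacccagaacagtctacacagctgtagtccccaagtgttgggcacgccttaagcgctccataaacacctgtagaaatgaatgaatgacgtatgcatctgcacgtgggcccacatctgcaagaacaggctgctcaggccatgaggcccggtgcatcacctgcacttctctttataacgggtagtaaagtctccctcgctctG

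The letters of 2 motifs linked to interferon signalling were searched on both strands of every window: TTCNNNGAA, the GAS (gamma-activated site) motif, and the interferon-stimulated response element (ISRE) core, a repeat of TTTC with 2 free bases between. Neither was found in the *ITGA6* windows. GAS letters lay in 2 of the 33 windows, those of *LAMB2* and *ITGAE*, and in 7.66% of all 35116 windows. ISRE letters lay in 1, that of *ITGB5*, on the strand opposite to the gene, and in 3.57% of all windows. These 3 matches are shown with 30 bases each, on the minus strand of the genome, with the motif letters in capitals.

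LAMB2 (GAS, chr3:49133080-49133109): gttgcgctccTTCCCAGAAtccgctccggc
ITGAE (GAS, chr17:3801404-3801433): cagctccctaTTCCATGAAagtgtgggtca
ITGB5 (ISRE, chr3:124887896-124887925): aaaaagaaaaGAAAAAGAAAtgtaggtttt

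Across the windows of the chains, the letters were no more frequent than among promoters at large, and no statement on the factors follows from them.

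Each library held between 17101069 and 55657393 reads on genes. The targeted transcript, *CD274*, which encodes PD-L1, was at 4.60 and 4.91 CPM (read counts scaled to library size) in unstimulated siNC, at 2.67 and 2.73 with siPDL1-1 and at 3.57 and 3.45 with siPDL1-2. After IFNγ it was at 71.2 and 76.0 in siNC, at 60.9 and 66.7 with siPDL1-1 and at 37.5 and 35.0 with siPDL1-2. The lower *CD274* level with siPDL1-1 after IFNγ did not pass the FDR threshold of 0.01 (log2 fold change -0.20, limma FDR = 0.0498). *VIM*, *SOX2*, *NES* and *CD44* were high in every library, while the astrocyte genes *GFAP* (1.92 to 7.25 CPM) and *S100B* (2.40 to 5.92 CPM) were low and *AQP4* and *OLIG2* reached at most 0.364 and 0.359 CPM. Among 10 leukocyte markers *PTPRC* reached at most 0.176 CPM, *MS4A1* was at 0 and *CD4* was at 3.15 to 6.10 CPM, and among 4 platelet markers *PF4*, *GP9* and *PPBP* were at 0 and *GP1BA* was at 1.31 to 2.66 CPM.

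By level, the transcripts fell into 3 classes. A mean of at least 10 CPM in at least 1 group was reached by 21 chains (9 *ITGA*, 5 *ITGB*, 3 *LAMA*, 3 *LAMB* and 1 *LAMC*), 9 peaked between 1 and 10 CPM, and 8 were under 1 CPM in every group. Levels are compared between chains as CPM per kb of annotated exon, with all transcripts of a gene merged, so a gene with long rare transcripts is understated. Positions are those of the GRCh38 annotation: *LAMC1* lies at chr1:183023420-183145592, *ITGA6* at chr2:172427354-172506459 and *ITGB8* at chr7:20330702-20415754, each on the plus strand. On the per-kb scale *LAMC1* was highest, with a mean over the 12 libraries of 73.2 CPM per kb, followed by *ITGA3* (63.7), *ITGB1* (46.8), *LAMB2* (42.0), *ITGA5* (37.0) and *ITGA6* (34.0). *LAMA4* and *LAMA5* were next to each other in this order, with means of 28.7 and 28.1 CPM per kb, and *LAMA5* varied across the libraries by more than the gap between them.

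**Figure D1:**
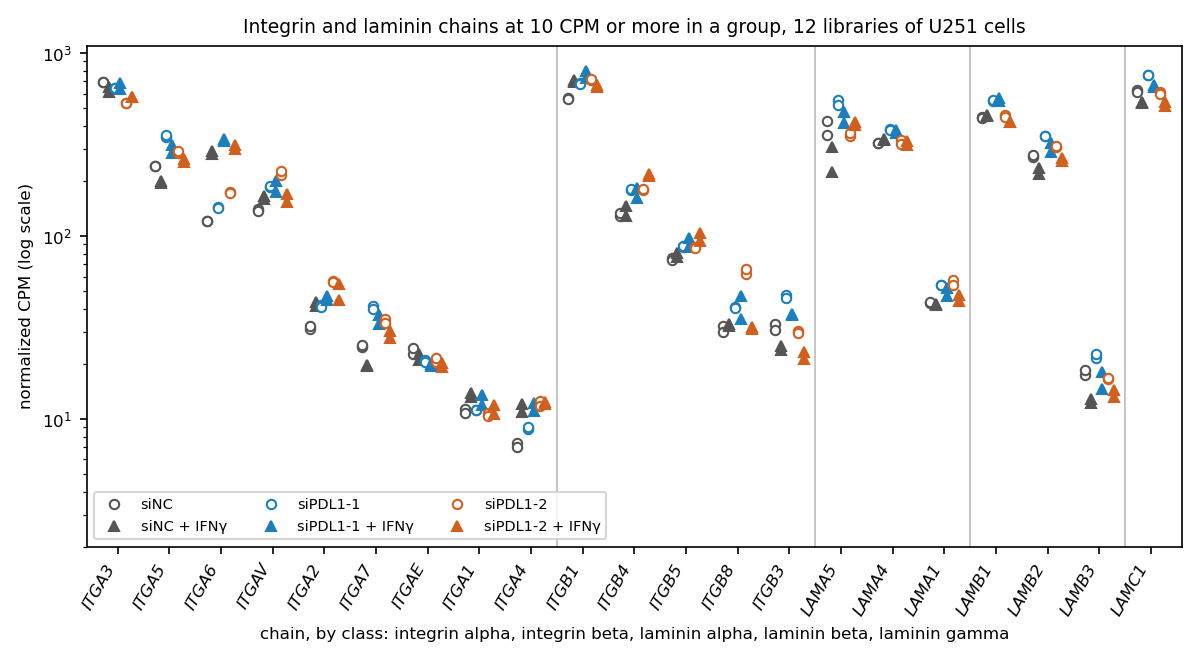
Normalized CPM (y axis, log scale) of the 21 chains that reached 10 CPM in a group, with 1 point for each of the 12 libraries; grey is siNC, blue siPDL1-1, orange siPDL1-2, open circles are unstimulated and filled triangles IFNγ-treated. *ITGA6* stands out with its IFNγ-treated libraries at 280.3 to 341 CPM and its unstimulated ones at 120.5 to 173 CPM.

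Among the laminin receptors, *ITGA3* ranged from 530.5 to 699 CPM over the 12 libraries and *ITGA6* from 120.5 to 341 CPM. *ITGA7*, a chain best known from muscle, ranged from 19.5 to 41.7 CPM. *ITGB1*, the common partner of all 3, ranged from 558 to 799.6 CPM, and *ITGB4*, which pairs with *ITGA6* alone in hemidesmosomes, from 128 to 218 CPM. Of the summed CPM per kb of *ITGA3*, *ITGA6* and *ITGA7*, *ITGA6* made up 19.9% and 19.6% in unstimulated siNC and 37.8% and 40.3% in IFNγ-treated siNC. The share of *ITGA6* was 23.5% and 23.4% with siPDL1-1, and 39.9% and 42.5% after IFNγ. With siPDL1-2 it was 30.9% and 30.8% before and 43.1% and 41.8% after IFNγ, so all 6 stimulated libraries were above all 6 unstimulated ones.

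The receptors for Arg-Gly-Asp ligands were led by *ITGA5*, the fibronectin receptor chain, at 195 to 359 CPM, and *ITGAV*, at 137 to 226 CPM. Of the beta chains that pair with *ITGAV*, *ITGB5* (73.9 to 104 CPM), *ITGB8* (29.99 to 66.1 CPM) and *ITGB3* (21.4 to 47.6 CPM) were present, while *ITGB6*, an epithelial chain, reached at most 0.0941 CPM. Of the collagen receptors, *ITGA2* was at 30.9 to 56.6 CPM, *ITGA1* at 10.3 to 13.9 CPM, *ITGA11* at 1.68 to 6.24 CPM and *ITGA10* at 0.281 to 2.204 CPM. *ITGA1* shares its locus and strand with *PELO*, which had a mean of 30.1 CPM, so reads of the *ITGA1* and *PELO* pair could be split by the counting.

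*ITGA4* and *ITGA9*, related chains that bind *VCAM1* and other ligands, were at 7.01 to 12.6 and 2.23 to 7.93 CPM. *ITGAE*, which in T cells pairs with *ITGB7* to bind E-cadherin, was at 19.3 to 24.4 CPM, whereas *ITGB7* reached at most 0.144 CPM. *ITGAE* overlaps *HASPIN* (12.0 CPM on average) on the opposite strand, and since the study's methods set the counting to both strands, reads of *ITGAE* and *HASPIN* could not be separated by strand there; the same holds for the other antisense overlaps given here. *ITGA2B*, the platelet chain, was at 2.68 to 6.73 CPM in libraries where the platelet markers *PF4*, *GP9* and *PPBP* had no reads and *GP1BA* was at 1.31 to 2.66 CPM, and *ITGB2*, the leukocyte beta chain, at 1.03 to 2.92 CPM. *ITGB2* overlaps *ITGB2-AS1*, whose mean was 1.24 CPM, in antisense.

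Of the laminin gamma chains, *LAMC1* ranged from 511 to 763 CPM and *LAMC3* from 1.10 to 4.84 CPM. Among the beta chains, *LAMB2* made up 53.9% to 62.0% of the summed CPM per kb, *LAMB1* 33.1% to 41.6%, and *LAMB3*, the epithelial beta chain, 4.23% to 5.86%. These shares depend on the merged exon length, which was 18592 bases for *LAMB1* and 6865 for *LAMB2*. In CPM the order was reversed, with *LAMB1* at 419.5 to 570.0 CPM and *LAMB2* at 217 to 352 CPM, so which was more abundant is not settled. The alpha chains were *LAMA4*, at 43.0% to 60.3% of the summed CPM per kb, and *LAMA5*, at 33.6% to 52.1%, both typical of vascular basement membranes, with *LAMA1* at 4.55% to 6.43%. In CPM *LAMA4* was at 316 to 384 and *LAMA5* at 223 to 555, with merged exons of 11983 and 14291 bases. *LAMA2* and *LAMA3* ranged from 2.17 to 3.62 and from 0.595 to 1.495 CPM. *LAMB1* overlaps *DLD* (105 CPM) and *LAMA5* overlaps *ADRM1* (124 CPM) on the opposite strand.

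To ask which chains responded to IFNγ, treated and untreated libraries were compared within each siRNA. A transcript was called when its limma false discovery rate (FDR, adjusted over the 17982 genes tested) was below 0.01 and its fold change exceeded 1.5; fold changes are on the log2(CPM + 1) scale, which understates those of low genes. Of the 38 chains, 31 had enough reads for the test, and the 7 that did not were *ITGB6*, *LAMB4*, *ITGA8*, *ITGB7*, *ITGAL*, *ITGAM* and *ITGAD*, none above 0.183 CPM in any library.

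*ITGA6* rose with IFNγ under all 3 siRNAs, in libraries that the 3 comparisons do not share. With siNC it went from 121 and 120.5 CPM to 280.3 and 291 CPM (log2 fold change 1.23 ± 0.039 (SE), limma FDR = 1.60e-12). With siPDL1-1 it went from 143 and 143 CPM to 330.1 and 341 CPM (log2 fold change 1.22 ± 0.039 (SE), limma FDR = 1.22e-12). With siPDL1-2 it went from 173 and 173 CPM to 314 and 299 CPM (log2 fold change 0.82 ± 0.039 (SE), limma FDR = 3.22e-10). The pairs of libraries lay far closer to each other than the groups did. The stimulated groups did not overlap the unstimulated ones, which the calls nearly require.

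In siNC, 2 of the 31 chains were called higher (6.45%, against 6.67% of all genes) and 0 lower (against 1.45%). The second was *ITGA4*, which went from 7.34 and 7.01 CPM to 12.1 and 10.9 CPM (log2 fold change 0.61 ± 0.086 (SE), limma FDR = 4.67e-05). The *ITGA4* call was lost without unstimulated siNC replicate 2 (log2 fold change 0.58) and without IFNγ-treated siNC replicate 1 (0.54), and also with the size factors of DESeq2 in the limma fit (0.58), in each case because the fold change dropped below 1.5. In the first of these cases 1 chain was left in the count. In siPDL1-1 the 31 chains gave 1 call higher (3.23%, against 5.58% of all genes) and 1 lower (3.23%, against 1.30%), and in siPDL1-2 1 higher (3.23%, against 3.62%) and 2 lower (6.45%, against 1.65%). The shares called higher were near or under those of all genes, and the lower ones rest on 1 and 2 chains.

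In siNC, a quasi-likelihood fit of read counts (edgeR) called 3 further chains, all lower after IFNγ: *ITGA9*, *ITGA2B* and *LAMA5*. *LAMA5*, a chain of vascular laminins, was at 358 and 423 CPM before and 308 and 223 CPM after IFNγ (limma log2 fold change -0.57 ± 0.16 (SE), FDR = 0.0252), and *ITGA2B* at 4.95 and 4.91 CPM and 3.39 and 2.68 CPM (log2 fold change -0.56 ± 0.13 (SE), limma FDR = 0.00284). Both groups of either chain were apart, which a call nearly requires, though the duplicates of *LAMA5* were spread.

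The chain that fell with IFNγ in siPDL1-1 cells was *ITGA9*, from 7.08 and 7.93 CPM to 4.62 and 3.86 CPM (log2 fold change -0.70 ± 0.11 (SE), limma FDR = 1.73e-04). In siNC *ITGA9* was at 3.87 and 4.25 CPM before and 2.23 and 2.70 CPM after IFNγ (log2 fold change -0.55, limma FDR = 0.00112), which did not reach the fold threshold. With siPDL1-2 its difference was -0.58 (limma FDR = 0.00123), also short of it. In siPDL1-2 cells *ITGB8*, a beta chain known for activating latent TGF-beta together with *ITGAV*, fell from 61.8 and 66.1 CPM to 30.9 and 31.6 CPM (log2 fold change -1.01 ± 0.096 (SE), limma FDR = 3.91e-06). *ITGB8* was at 32.0 and 29.99 CPM and 32.2 and 32.9 CPM in siNC, where the 95% confidence interval of the log2 fold change was -0.14 to 0.27. *ITGA2B* fell as well in siPDL1-2 cells, from 5.03 and 5.52 CPM to 3.23 and 2.97 CPM (log2 fold change -0.61 ± 0.13 (SE), limma FDR = 0.0024). That call was lost without unstimulated siPDL1-2 replicate 1 (limma FDR = 0.0126) or replicate 2 (0.0345), and without IFNγ-treated siPDL1-2 replicate 2 (0.0261). The sum of 4 platelet markers, all of it *GP1BA*, was 2.04 to 2.66 CPM before and 1.69 to 1.88 CPM after IFNγ in these cells, with *PF4*, *GP9* and *PPBP* at 0, and its part in the *ITGA2B* value was not tested.

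Smaller differences were counted at an FDR below 0.01 with no fold threshold. Genes at large were not matched to the chains by level, and the part of level in these shares was not tested. In siNC 5 chains were higher (17.9% of all genes) and 8 lower (9.34%), in siPDL1-1 3 higher (14.4%) and 7 lower (8.49%), and in siPDL1-2 2 higher (9.57%) and 8 lower (7.56%). *LAMC1* and *LAMB2* were among the lower ones under each siRNA. *LAMC1* went from 627 and 610.3 CPM to 539 and 535 CPM in siNC (log2 fold change -0.20, limma FDR = 3.66e-04), from 757 and 763 CPM to 673 and 652 CPM in siPDL1-1 (-0.20, FDR = 5.92e-04) and from 613 and 600.2 CPM to 538 and 511 CPM in siPDL1-2 (-0.21, FDR = 5.13e-04). The 3 differences of *LAMC1* were nearly of 1 size. For *LAMB2* they were -0.28, -0.20 and -0.24, and for *LAMB3* -0.49, -0.42 and -0.26, the last with an FDR above 0.01. *LAMB1*, which shares its trimer position with *LAMB2*, did not pass in any of the 3 (log2 fold changes 0.038, 0.019 and -0.11).

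Of the integrin chains, *ITGB3* and *ITGA2B* were lower at an FDR below 0.01 under each siRNA. *ITGB3*, the vitronectin receptor beta chain, went from 33.0 and 30.6 CPM to 23.8 and 25.1 CPM in siNC (log2 fold change -0.37), and its differences with the *PD-L1* siRNAs were -0.33 and -0.41. *ITGA5* was lower in siNC (-0.30, limma FDR = 1.05e-04) and siPDL1-1 (-0.23, limma FDR = 9.18e-04), and *ITGA7* in siNC (-0.34, limma FDR = 8.83e-04). *ITGB1*, *ITGA2* and *ITGAV* were higher in siNC, by 0.32, 0.42 and 0.23 on the log2 scale, whereas in siPDL1-2 cells *ITGAV* was lower (-0.45, limma FDR = 6.51e-05). The median log2 fold change over the 31 chains was -0.10 in siNC, -0.12 in siPDL1-1 and -0.17 in siPDL1-2, and over all genes 0.0012, -0.016 and -0.015. The summed level of 4 endothelial markers, of which *VWF* alone had a median of at least 1 CPM, was also lower after IFNγ, at 2.03 to 2.12 CPM against 4.11 to 5.57 CPM in siNC, 3.15 to 3.39 against 5.25 to 5.70 CPM in siPDL1-1 and 2.46 to 2.84 against 4.07 to 5.40 CPM in siPDL1-2. *PECAM1* reached at most 0.297 CPM in any library. Of 5 epithelial markers, *KRT8* and *KRT18* alone had a median of at least 1 CPM, *EPCAM* reached at most 0.120 CPM, and their sum was 125 to 127 CPM before and 95.1 to 95.7 CPM after IFNγ in siNC, 112 to 117 and 90.4 to 93.4 CPM in siPDL1-1, and 104 to 105 and 96.5 to 109 CPM in siPDL1-2, where the ranges overlapped. The part of these markers in the results on chains was not tested.

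**Figure D2:**
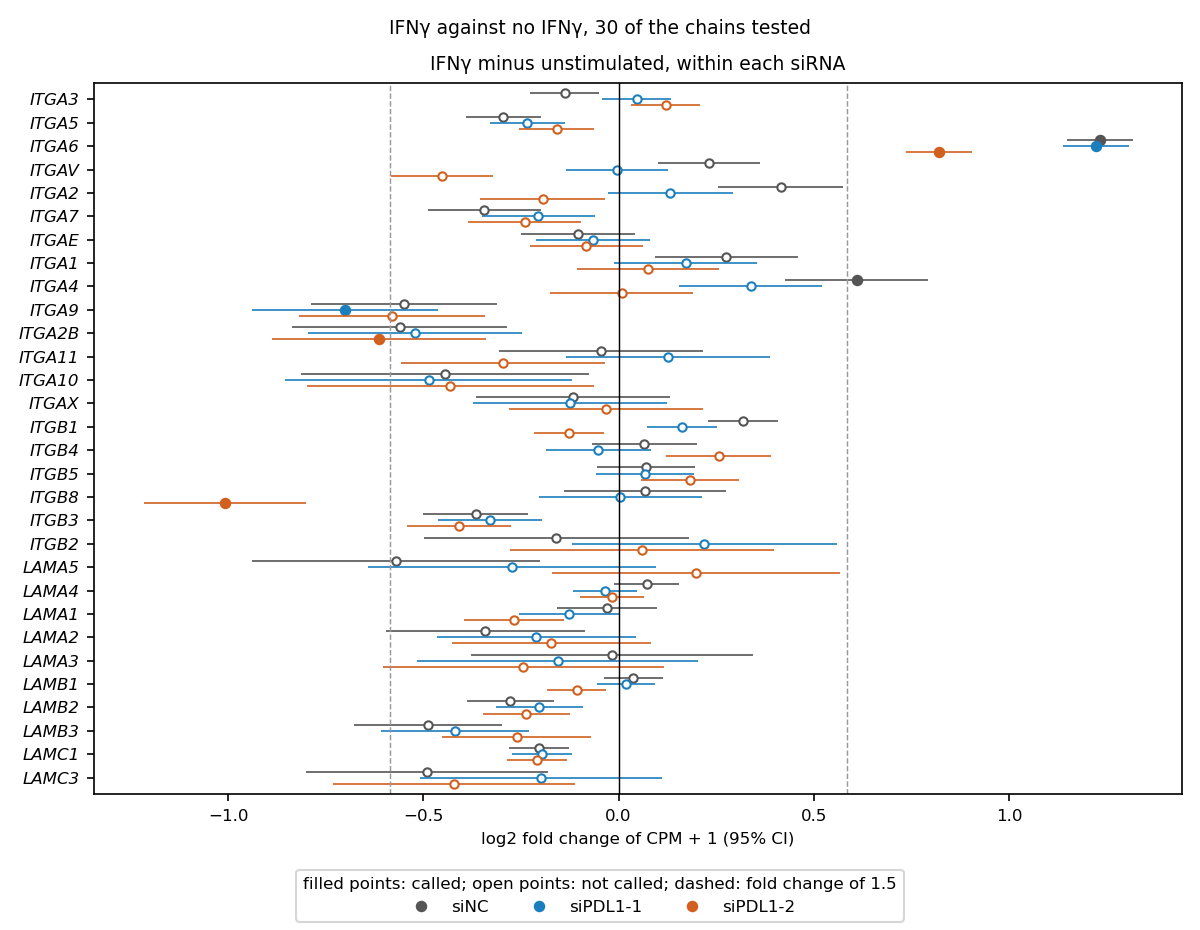
Log2 fold change of CPM + 1 with IFNγ (x axis; bars are 95% confidence intervals) for 30 of the 31 chains tested, in siNC (grey), siPDL1-1 (blue) and siPDL1-2 (orange) cells; filled points were called, and dashed lines mark a fold change of 1.5. *ITGA6* lies at 1.23, 1.22 and 0.82, and *ITGB8* at -1.01 in siPDL1-2 cells alone is past the lower line by its whole interval.

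The effect of siPDL1-1 was asked against siNC, without and with IFNγ, and these comparisons and those of siPDL1-2 share the siNC libraries. Unstimulated, 4 of the 31 chains were called higher (12.9%, against 2.55% of all genes) and 0 lower (against 1.45%). *ITGA11*, a collagen receptor chain of mesenchymal cells, went from 2.15 and 2.02 CPM in siNC to 5.16 and 5.32 CPM (log2 fold change 1.01 ± 0.12 (SE), limma FDR = 1.94e-05). *ITGA9* was at 3.87 and 4.25 CPM in siNC and 7.08 and 7.93 CPM with siPDL1-1 (log2 fold change 0.75 ± 0.11 (SE), limma FDR = 1.28e-04). *ITGA7* was at 24.9 and 25.5 CPM and 41.7 and 39.7 CPM (log2 fold change 0.67 ± 0.068 (SE), limma FDR = 3.55e-06). For each of these 3 chains, both siPDL1-1 libraries were above both siNC libraries, which a call nearly requires and which is no further support.

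*LAMC3*, a gamma chain at low level, was at 2.55 and 1.95 CPM in siNC and 4.84 and 3.88 CPM with siPDL1-1 (log2 fold change 0.72 ± 0.14 (SE), limma FDR = 0.0015). Its duplicates were spread, and the call was lost without unstimulated siNC replicate 2 (limma FDR = 0.025) and without unstimulated siPDL1-1 replicate 1 (limma FDR = 0.0338). *ITGA7* overlaps *BLOC1S1* and *METTL7B* on the opposite strand, and *BLOC1S1* ranged from 36.7 to 49.2 CPM over the 12 libraries. The sum of 10 leukocyte markers, of which *CD4* alone had a median of at least 1 CPM, was 6.38 to 6.87 CPM with siPDL1-1 and 4.10 to 4.75 CPM in siNC, with *MS4A1* at 0, and its part in these calls was not tested.

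After IFNγ, 6 chains were called higher with siPDL1-1 than with siNC (19.4%, against 3.73% of all genes) and 0 lower (against 1.75%). *ITGA11* was at 2.34 and 1.68 CPM in siNC and 6.24 and 5.41 CPM with siPDL1-1 (log2 fold change 1.19 ± 0.12 (SE), limma FDR = 2.85e-06). *LAMC3* was at 1.10 and 1.51 CPM and 3.38 and 3.95 CPM (log2 fold change 1.02 ± 0.14 (SE), limma FDR = 6.58e-05). *ITGA7* was at 19.7 and 19.5 CPM and 37.2 and 33.2 CPM (log2 fold change 0.81 ± 0.068 (SE), limma FDR = 3.26e-07). The calls of these 3 chains held in every alternative fit.

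The other 3 calls were lost when single libraries were left out, and those of *LAMA5* and *ITGA9* also in a fit of the 4 libraries compared (limma FDR = 0.0156 and 0.0162). *LAMA5* was at 308 and 223 CPM in siNC and 478 and 416 CPM with siPDL1-1 (log2 fold change 0.77 ± 0.16 (SE), limma FDR = 0.00799). Its siNC duplicates differed by more than those of the other abundant chains, and without IFNγ-treated siNC replicate 2 the log2 fold change dropped to 0.53, below the fold threshold. The FDR was 0.0643 without IFNγ-treated siPDL1-1 replicate 1 and 0.0244 without replicate 2. *ITGA5* was at 199 and 195 CPM and 316 and 286 CPM (log2 fold change 0.61 ± 0.045 (SE), limma FDR = 8.72e-08), and without IFNγ-treated siPDL1-1 replicate 1 its log2 fold change was 0.54. *ITGA9* was at 2.23 and 2.70 CPM and 4.62 and 3.86 CPM (log2 fold change 0.60 ± 0.11 (SE), limma FDR = 6.67e-04). Without IFNγ-treated siNC replicate 1 the *ITGA9* value was 0.50, and without IFNγ-treated siPDL1-1 replicate 1 it was 0.49. Without that last library the count of called chains was 3 in place of 6.

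At an FDR below 0.01 with no fold threshold, 17 of the 31 chains were higher with siPDL1-1 in unstimulated cells (54.8%, against 9.80% of all genes) and 0 lower (8.99%). After IFNγ 14 were higher (45.2%, against 11.6%) and 0 lower (12.2%). Here too genes at large were not matched to the chains by level. Of the 11 laminin chains tested, 6 were higher in each state. Unstimulated, these were *LAMA1*, *LAMA4*, *LAMB1*, *LAMB2*, *LAMC1* and *LAMC3*, and after IFNγ *LAMA5*, *LAMB1*, *LAMB2*, *LAMB3*, *LAMC1* and *LAMC3*. *LAMC1* was at 627 and 610.3 CPM in siNC and 757 and 763 CPM with siPDL1-1 (log2 fold change 0.30, limma FDR = 2.12e-05), and after IFNγ at 539 and 535 CPM and 673 and 652 CPM (0.30, FDR = 1.19e-05). *LAMB1* was at 447 and 439 CPM in siNC and 544 and 555 CPM with siPDL1-1 (0.31, FDR = 1.10e-05). Apart from *LAMC3* and *LAMA5*, the log2 fold changes of the laminin chains that passed lay between 0.25 and 0.43, under the fold threshold. The siPDL1-1 and siNC libraries of *LAMC1*, *LAMB1* and *LAMB2* did not overlap in either state, which passing the FDR makes likely. The median log2 fold change over the 31 chains was 0.31 without and 0.29 with IFNγ, against 0.016 and -0.0049 over all genes.

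The siRNA siPDL1-2 was compared with siNC in the same way. Unstimulated, 5 of the 31 chains were called higher than in siNC (16.1%, against 4.84% of all genes) and 0 lower (against 1.33%), all of them integrin chains. *ITGB8* went from 32.0 and 29.99 CPM in siNC to 61.8 and 66.1 CPM (log2 fold change 1.02 ± 0.096 (SE), limma FDR = 3.65e-06). *ITGAV*, its alpha partner, went from 140.1 and 137 CPM to 216 and 226 CPM (log2 fold change 0.67 ± 0.061 (SE), limma FDR = 1.45e-06). *ITGA2*, the main collagen receptor chain here, went from 30.9 and 32.2 CPM to 56.6 and 56.2 CPM (log2 fold change 0.82 ± 0.075 (SE), limma FDR = 1.09e-06). All 3 had tight duplicates, and their groups did not overlap, which a call nearly requires. Marker sums differed between these groups as well: they were 5.07 to 6.21 CPM with siPDL1-2 and 4.10 to 4.75 CPM in siNC for the leukocyte list, 2.04 to 2.66 and 1.62 to 1.80 CPM for the platelet list, and 104 to 105 and 125 to 127 CPM for the epithelial list, and their part in these calls was not tested.

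*ITGA4* was at 7.34 and 7.01 CPM in siNC and 12.6 and 11.7 CPM with siPDL1-2 (log2 fold change 0.68 ± 0.086 (SE), limma FDR = 2.08e-05), and *ITGA9* at 3.87 and 4.25 CPM and 7.76 and 7.54 CPM (log2 fold change 0.77 ± 0.11 (SE), limma FDR = 6.54e-05). The 5 calls held in every alternative fit that was run. *ITGA9* was thus called with both siRNAs against the same 2 siNC libraries, by 0.75 and 0.77. After IFNγ it was called with both again, by 0.60 and 0.74, the first with the exceptions given above. *ITGA9* overlaps *ITGA9-AS1*, whose mean was 1.51 CPM, in antisense.

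After IFNγ, 2 chains were called higher with siPDL1-2 than with siNC (6.45%, against 1.92% of all genes) and 0 lower (against 1.20%). *ITGA9* was at 2.23 and 2.70 CPM in siNC and 4.81 and 4.76 CPM with siPDL1-2 (log2 fold change 0.74 ± 0.11 (SE), limma FDR = 1.75e-04). *ITGB4* was at 146 and 128 CPM and 212 and 218 CPM (log2 fold change 0.65 ± 0.063 (SE), limma FDR = 5.37e-06), and without IFNγ-treated siNC replicate 2 its log2 fold change was 0.56, below the fold threshold, which left 1 call. *ITGB4* overlaps *GALK1*, at a mean of 38.6 CPM, on the opposite strand. None of *ITGB8*, *ITGAV*, *ITGA2* and *ITGA4* passed after IFNγ: *ITGB8* was at 32.2 and 32.9 CPM in siNC and 30.9 and 31.6 CPM with siPDL1-2 (95% confidence interval of the log2 fold change -0.26 to 0.15), and *ITGAV* at 160.2 and 166 CPM and 169 and 153 CPM (-0.15 to 0.11).

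With no fold threshold, siPDL1-2 gave 13 chains higher (41.9%, against 16.5% of all genes) and 1 lower (3.23%, against 11.9%) in unstimulated cells, and 6 higher (19.4%, against 8.60%) and 0 lower (against 9.75%) after IFNγ. The lower one was *ITGA3*, at 692 and 699 CPM in siNC and 530.5 and 532 CPM with siPDL1-2 (log2 fold change -0.39, limma FDR = 5.04e-06). *ITGA6* was higher with siPDL1-2 in unstimulated cells, at 173 and 173 CPM against 121 and 120.5 CPM (0.51, FDR = 2.22e-07), so these laminin receptor chains differed from siNC in opposite directions. Of the laminin chains 1 passed in each state, *LAMA1* without IFNγ (0.36, FDR = 2.43e-04) and *LAMB2* with IFNγ (0.21, FDR = 0.00621). After IFNγ, edgeR's quasi-likelihood test called *LAMA5* higher with siPDL1-2 as well (log2 fold change 0.64, FDR = 8.37e-04). *LAMA5* was there at 308 and 223 CPM in siNC, duplicates that were spread, and at 418 and 404 CPM with siPDL1-2. The median log2 fold change over the 31 chains was 0.17 without and 0.08 with IFNγ, against 0.028 and -0.0061 over all genes.

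**Figure D3:**
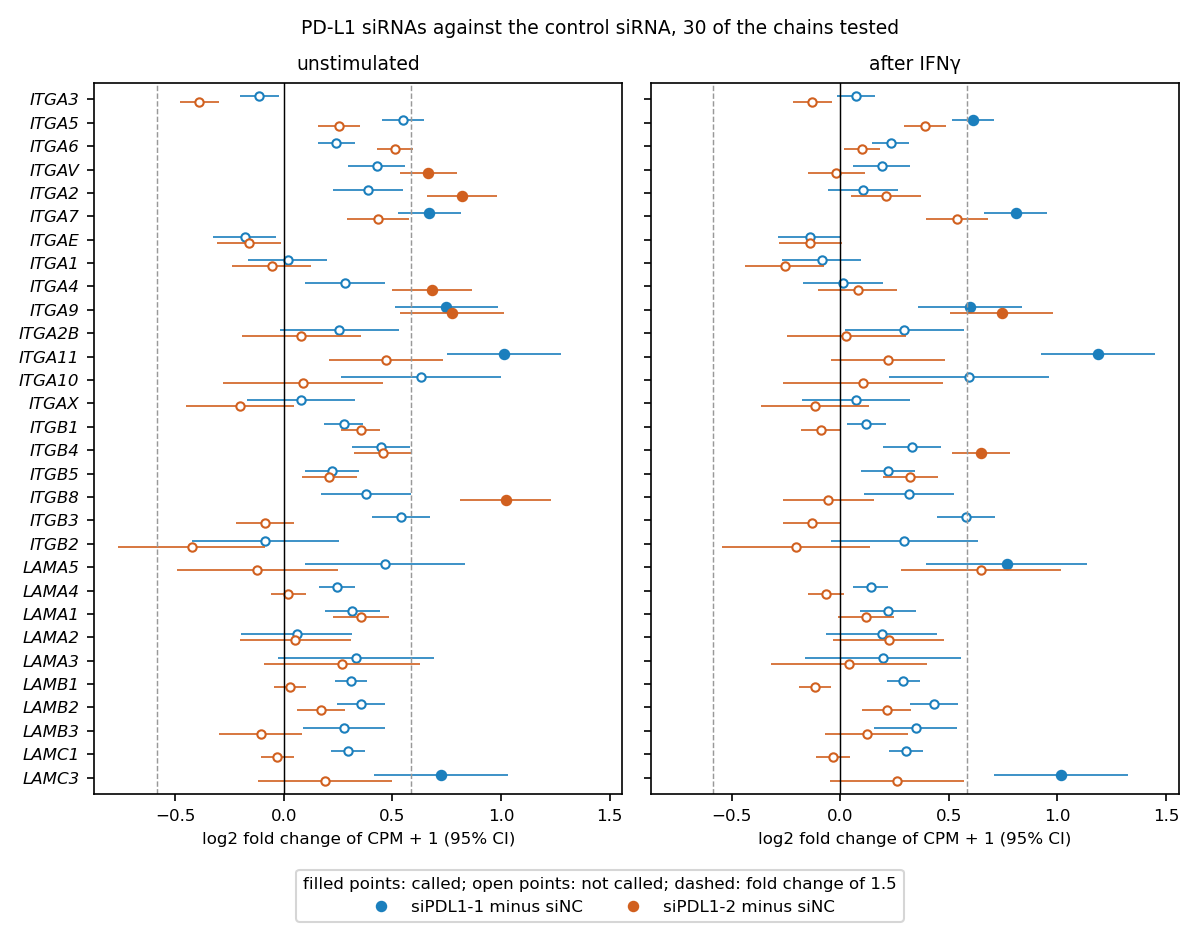
Log2 fold change of CPM + 1 against siNC (x axis; bars are 95% confidence intervals) for 30 of the 31 chains tested, with siPDL1-1 in blue and siPDL1-2 in orange, unstimulated (left) and after IFNγ (right); filled points were called and dashed lines mark a fold change of 1.5. *ITGA11* and *LAMC3* were called with siPDL1-1 in both panels, and *ITGB8*, *ITGA2*, *ITGA4* and *ITGAV* with siPDL1-2 in the left panel only.

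The *PD-L1* siRNAs were then compared with each other. Unstimulated, siPDL1-1 gave 1 chain called higher than siPDL1-2 (3.23%, against 0.884% of all genes) and 1 lower (against 3.47%). *ITGB3* was at 47.6 and 45.9 CPM with siPDL1-1 and 30.4 and 29.3 CPM with siPDL1-2 (log2 fold change 0.63 ± 0.063 (SE), limma FDR = 4.50e-06), and *ITGB8* at 41.0 and 40.3 CPM and 61.8 and 66.1 CPM (log2 fold change -0.64 ± 0.096 (SE), limma FDR = 2.22e-04). After IFNγ, 3 chains were called higher (9.68%, against 1.79%) and 0 lower (against 0.439%). *ITGA11* was at 6.24 and 5.41 CPM and 2.52 and 2.45 CPM (log2 fold change 0.97 ± 0.12 (SE), limma FDR = 5.31e-05), and *ITGB3* at 37.2 and 36.8 CPM and 23.2 and 21.4 CPM (log2 fold change 0.71 ± 0.063 (SE), limma FDR = 1.33e-06). *LAMC3* was at 3.38 and 3.95 CPM and 1.94 and 1.59 CPM (log2 fold change 0.76 ± 0.14 (SE), limma FDR = 0.00187), a call lost without IFNγ-treated siPDL1-1 replicate 2 (limma FDR = 0.016) and without IFNγ-treated siPDL1-2 replicate 2 (limma FDR = 0.0262). *ITGB3* was thus higher with siPDL1-1 than with siPDL1-2 in both states. Its means without and with IFNγ were 31.8 and 24.5 CPM in siNC, 46.8 and 37.0 CPM with siPDL1-1 and 29.9 and 22.3 CPM with siPDL1-2. By limma *ITGB3* was not called against siNC with either siRNA. By edgeR it was called with siPDL1-1 after IFNγ (log2 fold change 0.60, FDR = 7.07e-06).

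With no fold threshold, 9 chains were higher with siPDL1-1 than with siPDL1-2 (9.89% of all genes) and 5 lower (14.2%) in unstimulated cells, and 10 were higher (5.94%) and 1 lower (4.52%) after IFNγ. The laminin chains that passed were all on 1 side: of 11 tested, 5 were higher with siPDL1-1 in each state and 0 lower. By sign alone, 9 of the 11 were higher and 2 lower in each state. *LAMC1*, *LAMB1*, *LAMA4* and *LAMC3* passed in both states, *LAMB3* in unstimulated cells, and *LAMB2* after IFNγ. *LAMB1* was at 544 and 555 CPM with siPDL1-1 and 456 and 449 CPM with siPDL1-2 (log2 fold change 0.28, limma FDR = 3.17e-05), and after IFNγ at 570.0 and 544 CPM and 419.5 and 420.1 CPM (0.41, FDR = 1.03e-06). *LAMC1* after IFNγ was at 673 and 652 CPM and 538 and 511 CPM (0.34, FDR = 9.33e-06). The 5 chains lower with siPDL1-1 in unstimulated cells were integrin alpha chains and *ITGB8*: *ITGA2* (-0.43), *ITGA4* (-0.40), *ITGA6* (-0.27) and *ITGAV* (-0.24) besides *ITGB8*.

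Whether an siRNA effect changed with IFNγ was tested as an interaction. For siPDL1-1, 0 of the 31 chains were called in either direction by limma, against 0.890% of all genes higher and 0.0779% lower. By edgeR 0 chains were called, while it called 159 genes in all. DESeq2 also called 0 chains, and its count over all genes is not given here. An unadjusted p below 0.05 was reached by 5 chains. The share of all genes at that cut is not given, so the 5 do not tell whether the chains changed more than genes at large. For siPDL1-2, 4 chains were called lower by limma (12.9%, against 5.78% of all genes) and 0 higher (against 1.84%). The siPDL1-2 difference of *ITGB8* changed by -1.08 ± 0.14 (SE) on the log2 scale (limma FDR = 1.40e-04), from 1.02 without to -0.055 with IFNγ. That of *ITGAV* changed by -0.68 ± 0.087 (SE) (limma FDR = 1.01e-04), from 0.67 to -0.019. Both calls held in every alternative fit.

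The other 2 were *ITGA2*, with a change of -0.61 ± 0.11 (limma FDR = 7.33e-04), and *ITGA4*, with -0.60 ± 0.12 (limma FDR = 0.00202). *ITGA2* was at 30.9 and 32.2 CPM in siNC, 56.6 and 56.2 CPM with siPDL1-2, 41.5 and 43.3 CPM in IFNγ-treated siNC and 54.5 and 44.4 CPM with both. Its change was -0.47 without IFNγ-treated siPDL1-2 replicate 2, -0.58 without IFNγ-treated siNC replicate 2 and -0.58 without unstimulated siNC replicate 1, each below the fold threshold. It was also below it with the DESeq2 Wald test (-0.58) and with DESeq2 size factors in the limma fit (-0.57), as was *ITGA4* with those size factors (-0.56). *ITGA4* was at 12.6 and 11.7 CPM with siPDL1-2 and 12.3 and 12.1 CPM with siPDL1-2 and IFNγ. Its call was lost without unstimulated siNC replicate 2 (change -0.57), IFNγ-treated siNC replicate 1 (-0.53), unstimulated siPDL1-2 replicate 1 (-0.55) or IFNγ-treated siPDL1-2 replicate 2 (-0.59, FDR = 0.01002). Without that last library 2 chains in place of 4 were called.

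With no fold threshold the interaction with siPDL1-2 was below an FDR of 0.01 for 6 chains on the lower side (19.4%, against 11.9% of all genes) and 1 on the higher side (3.23%, against 5.16%). The additional ones were *ITGB1* (-0.45, limma FDR = 1.14e-04), *ITGA6* (-0.41, limma FDR = 1.39e-04) and, on the higher side, *ITGA3* (0.26, limma FDR = 0.00429). For *ITGA6* this is the smaller IFNγ difference in siPDL1-2 cells, which started from 173 and 173 CPM and reached levels between those of siNC and siPDL1-1. No laminin chain passed with limma. With edgeR's quasi-likelihood test *LAMA5* passed on the higher side (0.79, FDR = 0.00222), beyond the fold threshold.

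**Figure D4:**
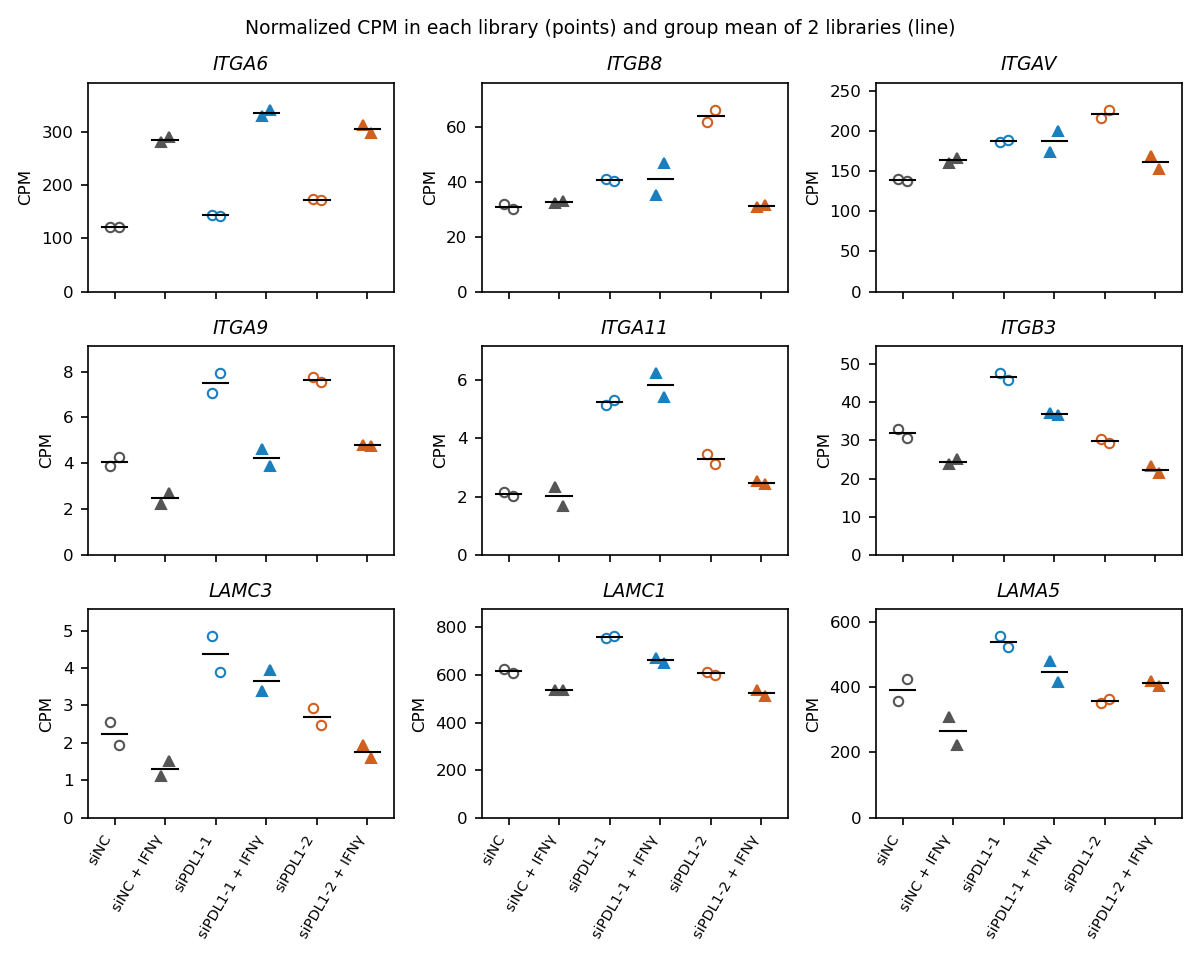
Normalized CPM (y axes, each starting at 0) of 9 chains in the 6 groups, with 1 point per library and a line at the mean of the 2 libraries; open circles are unstimulated and filled triangles IFNγ-treated. *ITGA6* is high in every IFNγ-treated group, *ITGB8* is highest in unstimulated siPDL1-2 cells (61.8 and 66.1 CPM), and the 2 IFNγ-treated siNC libraries of *LAMA5* lie apart (308 and 223 CPM).

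The partners of these chains were described from 3 lists, written with earlier results of these data known. Of 50 integrin adaptors and focal adhesion genes, 47 were tested. With IFNγ, 3 were called higher in siNC (6.38%, against 6.67% of all genes), 3 in siPDL1-1 (6.38%, against 5.58%) and 1 in siPDL1-2 (2.13%, against 3.62%). In each, 0 were lower (against 1.45%, 1.30% and 1.65%). These shares were near or below those of all genes. The medians of the list were -0.07, -0.02 and 0.07, against 0.0012, -0.016 and -0.015 over all genes. *TNS1*, a tensin that links integrin tails to actin, was the gene called under all 3, with 3.37 ± 0.291 CPM before and 8.07 ± 0.153 CPM after IFNγ in siNC (SD, n = 2; log2 fold change 1.06 ± 0.096 (SE), limma FDR = 5.50e-07). The others in siNC and siPDL1-1 were *RAP1B*, a GTPase that activates integrins, and *PTK2B*, a kinase related to focal adhesion kinase. Against siNC, siPDL1-1 gave 1 higher call without IFNγ (2.13%, against 2.55% of all genes) and 4 with it (8.51%, against 3.73%), and siPDL1-2 gave 3 (6.38%, against 4.84%) and 3 (6.38%, against 1.92%). The single lower call was *TNS3*, without IFNγ with siPDL1-2 (2.13%, against 1.33% of all genes). Its log2 fold change was -0.65 ± 0.045 (SE) (limma FDR = 6.57e-08). Lower calls numbered 0 for siPDL1-1 without and with IFNγ (against 1.45% and 1.75%) and for siPDL1-2 with it (against 1.20%). *RAP1B* was called higher in all 4 of these comparisons, from 40.2 ± 2.42 CPM in unstimulated siNC to 75.7 ± 0.979 CPM with siPDL1-1 and 101 ± 4.31 CPM with siPDL1-2 (log2 fold changes 0.90 and 1.31). *CD82*, a tetraspanin, rose with siPDL1-1 after IFNγ (log2 fold change 0.92 ± 0.051 (SE), limma FDR = 3.87e-09). Between the siRNAs, siPDL1-1 had 1 gene higher without (2.13%, against 0.884% of all genes) and 3 with IFNγ (6.38%, against 1.79%). The interaction gave 1 higher call for siPDL1-1, *PTK2B* (2.13%, against 0.890% of all genes), and 3 lower calls for siPDL1-2, *RAP1A*, *RAP1B* and *LIMS1* (6.38%, against 5.78%).

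Of 27 basement membrane partners and other laminin receptors, 25 were tested. IFNγ gave 1 call higher and 1 lower in siNC (4% each, against 6.67% and 1.45% of all genes). It gave 1 higher in siPDL1-1 (4%, against 5.58%) and 0 in siPDL1-2 (against 3.62% higher and 1.65% lower). The lower one was *HSPG2* (perlecan), at 202 ± 15.4 CPM before and 129 ± 16.0 CPM after (log2 fold change -0.65 ± 0.10 (SE), limma FDR = 9.54e-04), and the higher one *SGCB*, a sarcoglycan. With siPDL1-1, 4 were called higher in unstimulated cells (16%, against 2.55% of all genes) and 5 after IFNγ (20%, against 3.73%), and 0 lower (against 1.45% and 1.75%). They included *NID1* (nidogen, which joins laminin to collagen IV) at 255 ± 1.17 CPM in siNC and 428 ± 1.55 CPM with siPDL1-1 (log2 fold change 0.74 ± 0.04 (SE), limma FDR = 8.23e-09), and *COL4A1* at 175 ± 0.315 CPM and 273 ± 3.50 CPM (log2 fold change 0.63 ± 0.046 (SE), limma FDR = 1.50e-07), both called in both states. After IFNγ *AGRN* (agrin) had the largest difference, 382 ± 88.1 CPM in siNC and 844 ± 75.0 CPM with siPDL1-1 (log2 fold change 1.16 ± 0.16 (SE), limma FDR = 0.00132), and its duplicates were spread. With siPDL1-2, 1 was called higher without IFNγ (4%, against 4.84% of all genes), *SGCB* (1.13), and 0 with it (against 1.92%). The median log2 fold change of the list was 0.25 and 0.36 with siPDL1-1 and 0.09 and 0.15 with siPDL1-2, without and with IFNγ, against all-gene medians of 0.016, -0.0049, 0.028 and -0.0061 in the same order. Between the siRNAs 1 gene (4%, against 0.884% of all genes), *COL18A1*, was called higher with siPDL1-1, in unstimulated cells (log2 fold change 0.63 ± 0.13 (SE), limma FDR = 0.008). The interaction gave 1, *SGCB*, lower for siPDL1-2 (4%, against 5.78%).

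Of 60 integrin ligands other than laminins, 47 were tested. *VCAM1*, a ligand of *ITGA4* and *ITGA9*, rose with IFNγ under every siRNA, from 6.96 ± 2.08 CPM to 76.2 ± 1.96 CPM in siNC (log2 fold change 3.30 ± 0.13 (SE), limma FDR = 3.43e-09), by 3.05 in siPDL1-1 and by 2.39 in siPDL1-2. *ICAM1*, a leukocyte integrin ligand named here although it lay below the mean of 1 CPM set for naming, with 0.890 CPM, was also called higher under each. In all, IFNγ gave 2 higher (4.26%, against 6.67% of all genes) and 6 lower calls (12.8%, against 1.45%) in siNC, 2 (4.26%, against 5.58%) and 1 (2.13%, against 1.30%) in siPDL1-1, and 3 (6.38%, against 3.62%) and 3 (6.38%, against 1.65%) in siPDL1-2. *THBS2* (thrombospondin-2) fell under each siRNA, by 0.62, 0.81 and 0.89 on the log2 scale (chosen for naming after its values were seen). *CCN2*, a matricellular protein, fell in siNC from 40.4 ± 0.330 CPM to 16.5 ± 0.351 CPM (log2 fold change -1.25 ± 0.071 (SE), limma FDR = 2.50e-09).

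With siPDL1-1, 12 ligands were called higher (25.5%, against 2.55% of all genes) and 2 lower (4.26%, against 1.45%) in unstimulated cells, and 12 higher (25.5%, against 3.73%) and 0 lower (against 1.75%) after IFNγ. The list medians were 0.34 and 0.32, against 0.016 and -0.0049 over all genes. *FBN1* (fibrillin-1) was at 81.1 ± 0.314 CPM in siNC and 182 ± 0.246 CPM with siPDL1-1 (log2 fold change 1.16 ± 0.054 (SE), limma FDR = 2.43e-09), and *COL16A1*, *L1CAM* and *COL1A2* followed in size, with 1.06, 0.97 and 0.94. The 2 that fell, *CCN1* (-0.98) and *CCN2* (-0.97), also fell with siPDL1-2 against the same siNC libraries (-1.21 and -1.58). With siPDL1-2 the counts were 2 higher (4.26%, against 4.84% of all genes) and 3 lower (6.38%, against 1.33%) without IFNγ and 2 (against 1.92%) and 3 (against 1.20%) with it, with list medians of 0.15 and 0.13 against 0.028 and -0.0061 over all genes, the largest rise being *EDIL3*, a ligand of *ITGAV* pairs, from 669 ± 22.9 CPM to 1274 ± 56.9 CPM (log2 fold change 0.93 ± 0.099 (SE), limma FDR = 1.20e-04). Between the siRNAs, 4 ligands were higher with siPDL1-1 without IFNγ (8.51%, against 0.884% of all genes) and 8 with it (17.0%, against 1.79%). In both states 0 were lower (against 3.47% and 0.439%). Among the higher ones was *COL6A3*, at 99.7 ± 0.255 CPM with siPDL1-1 and 45.4 ± 1.88 CPM with siPDL1-2 (log2 fold change 1.12 ± 0.063 (SE), limma FDR = 2.97e-08). The interaction gave 1 higher call for siPDL1-1 (2.13%, against 0.890% of all genes), *CCN2* (1.00). For siPDL1-2 it gave 1 higher (2.13%, against 1.84%), *CCN2* (0.92), and 2 lower (4.26%, against 5.78%), *EDIL3* (-0.96) and *VCAM1* (-0.91).

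The chains not yet described by test stayed short of a call in all 11 comparisons. *ITGA1*, *ITGAE*, *ITGB2*, *LAMA2* and *LAMA3* had no FDR below 0.01 in any of them, and neither did *ITGA10* and *ITGAX*. *ITGAE*, at 22.6 and 24.4 CPM in unstimulated siNC and 20.9 and 20.4 CPM with siPDL1-1, had a 95% confidence interval of -0.32 to -0.034 on the log2 scale. *ITGA10* was at 1.08 and 0.759 CPM in siNC and 2.204 and 1.74 CPM with siPDL1-1, an interval of 0.26 to 1.00, which leaves room for a difference past the fold threshold.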

How the data were processed

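RNA of 12 U251 libraries, 2 in each of 6 groups, was sequenced by the authors, who mapped reads to GRCh38 (per the labels) and deposited 1 table of normalized CPM, a signal per gene, made in CLC Genomics Workbench. Per the methods, the authors counted reads of both strands, so antisense overlaps are not separated. Every deposited value was a whole multiple of what 1 read is worth in its library (100% within a tolerance of 0.05), so reads were recovered, between 17101069 and 55657393 per library.

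The deposited CPM were tested on the log2(CPM + 1) scale with limma (3.58.1, trend and robust, R 4.3.3) in 1 fit of the 6 groups over 12 libraries. Genes were kept by edgeR's filterByExpr (4.0.16, minimum count 10, minimum total 15) on recovered reads. FDR is Benjamini-Hochberg over 17982 genes, and a call needed FDR below 0.01 and a fold change above 1.5. In all, 11 comparisons were made. edgeR's quasi-likelihood test and DESeq2 (1.42.0) on recovered reads were alternatives, as were no filter, a pseudocount of 0.1, other scalings, a fit of only the libraries compared, and leaving out libraries. Of these fits, limma alone was tested on simulated counts. Precision is limited to the spread between the 2 libraries of each group, pooled over the groups and moderated across genes.

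The chains and the partner lists were chosen with earlier results of these data known. Chains of at least 10 CPM in a group, or called in a comparison, were to be named. From each partner list, at most 4 called genes in each direction were named in any 1 comparison. They were ranked by fold change and averaged 1 CPM or more over all libraries. Not every gene that this rule allowed was named, and *ICAM1* and *THBS2* were named outside it, after their values were seen. The share of *ITGA6* and of laminin chains per class was added after the data were seen. The separate values of 1 chain are not reported here.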

Additional observations from a re-analysis of the deposited data

Results flagged for a closer look

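In the test of whether an siPDL1-2 effect changed with IFNγ, 4 chains passed limma's FDR of 0.01 and the fold threshold. The change on the log2 scale was -1.08 for *ITGB8*, -0.68 for *ITGAV*, -0.61 for *ITGA2* and -0.60 for *ITGA4*, each a smaller difference from siNC after IFNγ than before it. No chain passed the same test for siPDL1-1.

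The siRNAs against *PD-L1* differed from each other in 5 tests. Unstimulated, the log2 fold change of siPDL1-1 over siPDL1-2 was 0.63 for *ITGB3* and -0.64 for *ITGB8*. After IFNγ it was 0.71 for *ITGB3*, 0.76 for *LAMC3* and 0.97 for *ITGA11*. Groups of 2 libraries are too small for a search for single libraries that lie apart.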

How the results depend on the processing

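With 2 libraries a group, the fold threshold and single libraries set which moderate differences were called. The siPDL1-2 interaction, with 4 chains called, gave 2 with DESeq2's size factors and 7 with no fold threshold. IFNγ in siNC, with 2 called, gave 5 with edgeR's quasi-likelihood test, 5 with DESeq2, 5 with a pseudocount of 0.1 and 13 with no fold threshold. The 5 of edgeR were *ITGA6* and *ITGA4* higher and *ITGA9*, *ITGA2B* and *LAMA5* lower. Over all genes edgeR called more as well, 1746 against 1460 by limma. The counts of the other alternatives, and of the fits without 1 library, show only how calls depend on processing. They are given without shares of all genes, so they do not tell whether the chains changed more than genes at large. With DESeq2 size factors in limma the count there was 2, 1 higher and 1 lower, with the *ITGA4* call lost (0.58). With no fold threshold the other counts were 10 for IFNγ in siPDL1-1, 10 for IFNγ in siPDL1-2, 17 and 14 for siPDL1-1 against siNC without and with IFNγ, 14 and 6 for siPDL1-2 against siNC, and 14 and 11 for siPDL1-1 against siPDL1-2. The cause was not tested, beyond the wider rule itself where the threshold was dropped.

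Leaving out 1 library at a time gave 1 to 3 calls for IFNγ in siNC, 2 to 3 in siPDL1-1 and 2 to 4 in siPDL1-2. Against siNC it gave 3 to 5 without and 3 to 7 with IFNγ for siPDL1-1, and 5 in every case without and 1 to 3 with IFNγ for siPDL1-2. Between the siRNAs it gave 2 in every case without and 2 to 3 with IFNγ, and for the interactions 0 for siPDL1-1 and 2 to 4 for siPDL1-2. No direction reversed in any alternative, and *ITGA6* stayed called with IFNγ under each siRNA in all of them.

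The replicate numbers were shared by the groups, but over 15 pairs of groups the correlation of deviations ran from -0.19 to 0.25, with 2 above 0.1 and 2 under -0.1. The study's methods name 2 independent experiments, but the labels do not say that a number marks one, so the numbers were not taken to pair the samples. A fit with the replicate number as a block gave the same counts of called chains in all 11 comparisons (2, 2 and 3 for IFNγ; 4 and 6 for siPDL1-1; 5 and 2 for siPDL1-2; 2 and 3 between them; 0 and 4 for the interactions). Low chains such as *LAMC3* and *ITGA2B* rest on few reads, which limits their precision.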
